A study of Mus musculus with 3 samples.

Results

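The respiratory chain genes were taken by symbol from the deposited feature list: nuclear genes whose symbols begin with Nduf, Uqcr, Cox4 to Cox8 or Atp5, with Sdha to Sdhd and Cycs, and the protein-coding genes of mitochondrial DNA. The rule found 107 of 31053 listed genes, carrying 106 symbols because Atp5o is listed under 2 identifiers. Of these, 94 were nuclear-encoded and 13 mitochondrially encoded. The nuclear members held 36 subunits of complex I, 8 complex I assembly factors, 4 subunits of complex II, 8 of complex III, 20 of complex IV, 17 of ATP synthase (complex V) and cytochrome c. The expression of these genes was measured by droplet single-cell RNA-seq in cells from the sensory epithelium of adult mouse cochlear explants. All mice carried rtTA with tet-on-Myc and tet-on-NICD, the activated intracellular part of Notch, and were 4-6 weeks old. Explants were kept for 4 days with doxycycline (Dox, 2 μg/ml), which switches both transgenes on, or with sterile water as control. The series had 1 control library and 2 Dox libraries, each from 4 pooled cultures. The labels name no promoter for rtTA, and no library came from Dox-treated tissue without the transgenes, so Dox itself and the transgenes cannot be told apart.

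The respiratory chain passes electrons from NADH (complex I) and succinate (complex II) through complex III and cytochrome c to oxygen at complex IV, and ATP synthase uses the resulting proton gradient. Its complexes, other than complex II, combine subunits from both genomes. Most mitochondrial subunits belong to the catalytic or proton-moving cores. Nuclear genes code for the other subunits, among them 7 core subunits of complex I. Mitochondrial DNA is transcribed into long precursors that are cut into single messages, with mt-Nd6 alone among the protein genes on the opposite strand. MYC is known to bind promoters of many nuclear genes for mitochondrial proteins.

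Depth and cell numbers differed between the libraries. After cells with under 200 genes or over 20% mitochondrial UMIs were left out, 363 control cells, 636 cells of Dox replicate 1 and 997 cells of Dox replicate 2 remained. The libraries shared cell barcodes: 101 between the control and Dox replicate 1, 92 between the control and Dox replicate 2, and 68 between the Dox libraries. In 193 cells that passed, the barcode was present in another library with 59.5 to 386 times as many UMIs. These shallow copies held 500 to 1885 UMIs and made up 22.0% of the control cells that passed (80 of 363), against 6.45% and 7.22% in the Dox libraries. Why barcodes were shared was not tested. The copies were left out; with them kept, 12 nuclear and 10 mitochondrial members were called in supporting cell-like cells, against 14 and 9 without. The kept cells numbered 283, 595 and 925, with median depths of 12829, 20441 and 29877 UMIs. Scrublet marked 2, 1 and 0 cells, too few to have worked, so no doublet was removed. Of the clusters named by marker genes, 3 classes had at least 20 cells in each library: supporting cell-like (23, 57 and 26 cells in the control, Dox replicate 1 and Dox replicate 2), Schwann or satellite glia-like (28, 38 and 50) and macrophage-like (23, 45 and 24). Their sums held 297854, 2176340 and 805030 UMIs, 297333, 811525 and 553077 UMIs, and 357357, 753808 and 681134 UMIs. In the supporting cell-like sums the 13 macrophage markers together stood at 8.15, 6.40 and 5.55 CPM, while the 17 supporting cell markers stood at 3274, 2606 and 2921 CPM. Of the 16 supporting cell markers tested there, 4 were called higher and 4 lower with Dox. Lists of other epithelia were also high in these sums. The 9 sulcus or interdental markers stood at 10260, 3516 and 2515 CPM, and the 15 markers of other epithelium at 4967, 4902 and 3395 CPM.

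The clearest difference between control and Dox cells lay between the genomes. In supporting cell-like cells, the 13 mitochondrial genes made up 3.67% of UMIs in the control (95% Wilson interval 3.604 to 3.739), 6.58% in Dox replicate 1 (6.55 to 6.61) and 5.21% in Dox replicate 2 (5.17 to 5.26). The 94 nuclear members made up 2.75% (2.69 to 2.81), 2.76% (2.74 to 2.78) and 2.62% (2.58 to 2.65) of UMIs in the same libraries. The mitochondrial share was thus higher in both Dox libraries, and the nuclear share was not. The ratio of mitochondrial to nuclear respiratory chain UMIs, which no scaling between libraries can alter, was 1.33 in the control against 2.38 and 1.99 with Dox. These intervals cover counting error only. An exact permutation test of 1 library against 2, two-sided, cannot go below p = 0.333, the value that the supporting cell-like ratio gave.

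The same ratio was 1.30, 1.69 and 1.83 in glia-like cells. At a clustering resolution of 2 instead of 1, this class kept 15 of its 28 control cells. Another 13 control cells then formed a cluster with no Dox cell. With the 15 control cells kept, the mean Dox ratio was only a little above that of the control. In macrophage-like cells the ratio was 1.11, 2.14 and 1.40, and the direction turned when each cell counted equally instead of each UMI (1.74, 1.70 and 1.40). At a clustering resolution of 2 this class held a cluster led by S100a8, with 21, 23 and 20 cells in the control and the Dox libraries. Another, led by Cd74, held 2, 22 and 4 cells. The part of this unequal mixture in the ratio was not tested. Among classes too small in 1 library for a test, the Reissner membrane-like cells gave 1.26, 1.66 and 2.02. Sulcus or interdental epithelium-like cells, with 11 control cells, gave 1.95, 2.08 and 1.69, so the Dox libraries lay on both sides of the control. Fibroblast-like cells gave 1.36 in the control and 1.40 in Dox replicate 2. Of the 116 control cells of this class, 97 lay in a cluster with no Dox cell, so these values come from largely different clusters. The ratio was above the control in both Dox libraries in the supporting, glia, macrophage and Reissner-like sums, and in 1 of the Dox libraries in the sulcus-like sum.

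**Figure D1:**
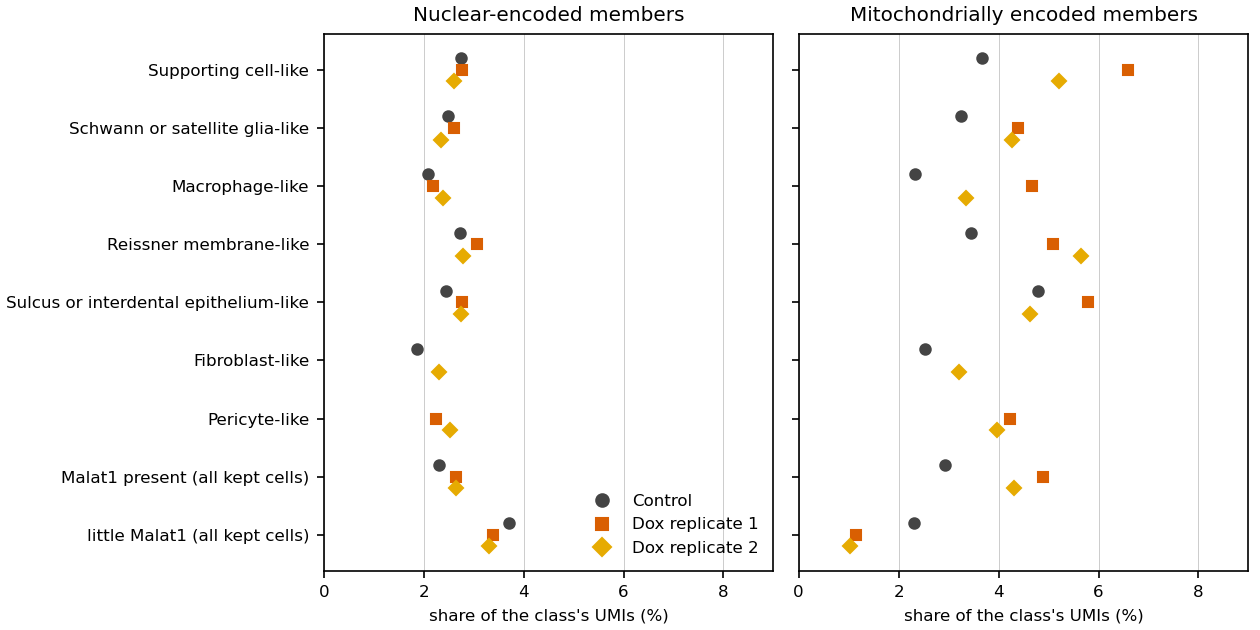
Share of all UMIs (%, horizontal axis) that came from the 94 nuclear members (left) and the 13 mitochondrial genes (right), per cell class and library, for classes with at least 10 cells in that library. The nuclear shares of the supporting cell-like class lie between 2.62% and 2.76%, while its mitochondrial share is 3.67% in the control against 6.58% and 5.21% with Dox.

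Expression was next tested gene by gene on the summed UMIs of each class. Counts were expressed as CPM scaled by TMM, which sets the trimmed average gene to no change. Calls are those of edgeR's quasi-likelihood test at 0.05 after Benjamini-Hochberg adjustment across every gene tested in the class, and all adjusted p given for a class are of this kind. With a single control library the spread came from the Dox libraries alone, so the control is assumed to vary as they do. Of 8902 genes tested in supporting cell-like cells, 5.76% were called higher and 3.0% lower with Dox (8.76% in either direction). Of the 13 mitochondrial genes, 9 rose and 0 fell, with a median log2 fold change of 1.35 against 0.03 over all genes tested.

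All 7 mitochondrial subunits of complex I were measured, and 6 rose. mt-Nd3, a membrane-arm subunit, stood at 291 CPM in the control, 1409 in Dox replicate 1 and 928 in Dox replicate 2 (log2 fold change 2.01, SE 0.28; adjusted p = 0.0013). Both Dox libraries lay far above the control for this gene. mt-Nd1, which lies next to the quinone site, stood at 1549, 5516 and 3767 CPM (1.58, SE 0.23, adjusted p = 0.0017). mt-Nd4l stood at 429, 1384 and 1258 CPM (1.62), mt-Nd2 at 1840, 4840 and 4519 CPM (1.35), and mt-Nd4 at 2801, 6952 and 6031 CPM (1.21). These 3 genes code for proton-pumping or neighbouring membrane subunits, and the Dox libraries lay close together for each. mt-Nd5 showed the smallest of the called changes, from 791 CPM to 1445 in both Dox libraries (0.87). mt-Nd6 stood at 70.6, 73.6 and 101 CPM and was not called (0.28, adjusted p = 0.68).

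mt-Cytb, the mitochondrial subunit of complex III, stood at 2744 CPM in the control against 8703 and 6638 CPM with Dox (1.48, SE 0.19). mt-Atp6, the proton channel subunit of ATP synthase, stood at 5236, 15571 and 12103 CPM (1.40, SE 0.17). Its neighbour mt-Atp8 stood at 174, 354 and 290 CPM and narrowly missed the threshold (0.89, adjusted p = 0.0515). The complex IV genes moved unequally. mt-Co2, which takes electrons from cytochrome c, stood at 4916, 15900 and 10506 CPM (1.43, SE 0.22). mt-Co3 stood at 3356, 6253 and 4372 CPM (0.66, adjusted p = 0.077), and mt-Co1, which holds the oxygen-reducing centre, at 5511, 8029 and 6269 CPM (0.38, adjusted p = 0.21). Neither was called. The calls of mt-Nd1, mt-Nd2, mt-Nd3, mt-Nd4l and mt-Cytb held in each of the 14 other settings tried. Those of mt-Nd4, mt-Nd5, mt-Atp6 and mt-Co2 were lost when cells with little Malat1 were left out, where 5 of 13 were called (adjusted p from 0.066 to 0.090 for the 4). That of mt-Co2 was also lost with DESeq2 (adjusted p = 0.072), and that of mt-Nd5 in 3 further settings. Among the settings tried, the clustering resolutions of 0.5 and 2 left the supporting cell-like sums unchanged and could not alter a call.

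**Figure D2:**
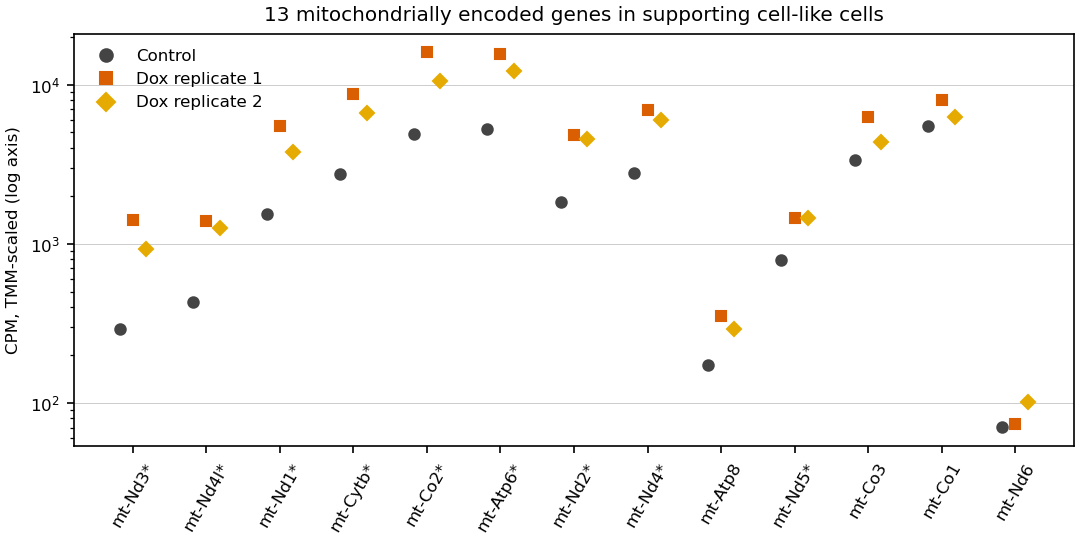
TMM-scaled CPM (log axis) of each mitochondrial gene in supporting cell-like cells, per library, ordered by fold change; an asterisk marks the 9 called genes. The Dox points lie above the control for all 13 genes, by the widest margin for mt-Nd3 and the narrowest for mt-Nd6.

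Expressed as a share of the mitochondrial UMIs, the unequal change did not depend on scaling. mt-Co1 made up 18.5% of them in control supporting cell-like cells (95% Wilson interval 17.8 to 19.3), 10.5% in Dox replicate 1 (10.3 to 10.7) and 10.8% in Dox replicate 2 (10.5 to 11.1). mt-Co3 made up 11.3%, 8.18% and 7.51%. The share of mt-Nd3 was 0.979% in the control against 1.84% and 1.59%, and that of mt-Cytb 9.24% against 11.4% in both Dox libraries. In glia-like cells mt-Co1 made up 16.9%, 14.3% and 14.3% of mitochondrial UMIs, and in macrophage-like cells 16.7%, 17.4% and 15.4%. The order of the libraries for mt-Co1 was thus the same in supporting and glia-like cells, with a smaller gap in the latter, and the Dox libraries straddled the control in macrophage-like cells. mt-Atp8 and mt-Atp6 overlap on mitochondrial DNA, as do mt-Nd4l and mt-Nd4, and mt-Nd5 meets mt-Nd6 from the other strand. The sources used here do not say how reads in such overlaps were assigned, so the values of these genes are uncertain to that extent.

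Of the 94 nuclear members, 88 passed the filter on low counts in supporting cell-like cells. Under TMM scaling 14 of these 88 rose and 0 fell (13 of 87 without Cox6b2, which had no control UMI), with a median log2 fold change of 0.44; both Dox libraries lay above the control for 67 of 88 and below it for 13, against 43.0% and 40.4% of all genes tested. Under scaling by total counts 5 of the 88 were called higher and 7 lower, where 4.41% of all genes were called higher and 14.8% lower. The members' median was then -0.059 and that of all genes -0.47, since the change of scaling shifts every gene by a like amount. By complex, TMM-scaled sums differed least from the control for complex I (6728, 8174 and 8028 CPM) and complex II (351, 378 and 417 CPM). They differed more for complex III (2282, 3757 and 3429 CPM), complex IV (6858, 11079 and 9304 CPM) and ATP synthase (5481, 7986 and 7393 CPM). This order depended on the scaling. As shares of all UMIs of the class, complexes I and II lay below the control in both Dox libraries and complex III above it. For complex IV and ATP synthase the Dox libraries lay on both sides of the control. The number of genes called higher was 3 of 36 tested in complex I, 0 of 7 among assembly factors and 0 of 4 in complex II. It was 2 of 8 in complex III, 6 of 16 in complex IV (5 of 15 without Cox6b2) and 3 of 16 in ATP synthase. For these counts and the 14 of 88, the background is 5.76% of all genes tested called higher and 3.0% lower under TMM scaling. The mitochondrial sums per complex were larger multiples of the control, at 2.78- and 2.32-fold for complex I, 3.17- and 2.42-fold for complex III, 2.19- and 1.53-fold for complex IV and 2.94- and 2.29-fold for ATP synthase.

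**Figure D3:**
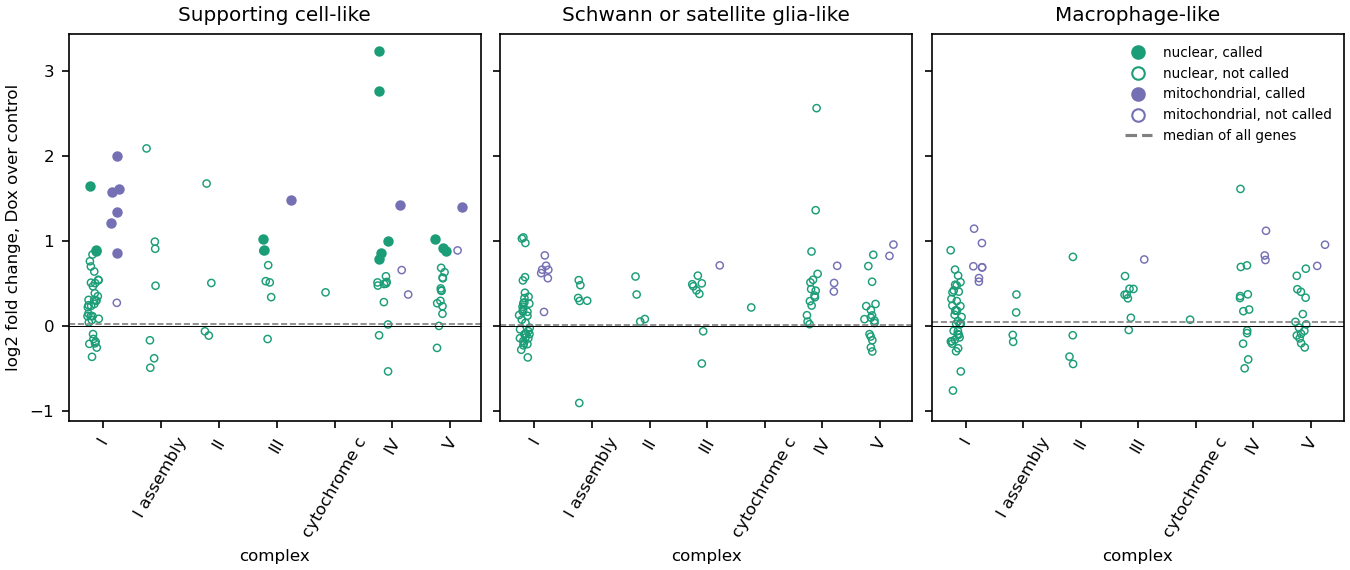
Log2 fold change of Dox over control (vertical axis) for each member tested, by complex, in the 3 classes with at least 20 cells per library; filled points were called, and Cox6b2 is left out of the supporting panel because its control sum is 0. Mitochondrial members lie above the median of all genes (dashed) in all 3 panels, and all filled points are in the supporting cell-like panel.

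The largest nuclear changes were in alternative isoforms of complex IV rather than in its common subunits. Cox4i2, the isoform of subunit IV associated with low oxygen and with lung (chr2:152754173-152765037, GRCm38, plus strand), stood at 48.9 CPM in the control, 523 in Dox replicate 1 and 397 in Dox replicate 2. Its log2 fold change was 3.24 (SE 0.32, adjusted p = 0.000124), and summed UMIs gave 9.98-fold (95% counting interval 6.29 to 16.9). Cox4i1, the common isoform (chr8:120668222-120674207, plus strand), stood at 476, 1014 and 895 CPM (1.01, SE 0.20, adjusted p = 0.011), a call lost in 3 of 15 other settings (scaling by totals, no cells of little Malat1, and thinned cells; adjusted p up to 0.52). Cox4i2 made up 9.33% of the UMIs of the pair in the control (95% Wilson interval 5.98 to 14.3) against 34.1% (32.3 to 35.8) and 30.7% (27.8 to 33.8) with Dox. Cox4i2 UMIs were found in 8 of 23, 44 of 57 and 19 of 26 supporting cell-like cells, at median depths of 6701, 8986 and 22704 UMIs. Macrophage-like cells had them in 2 of 23, 10 of 45 and 4 of 24, at 7810, 10483 and 23460 UMIs. The call of Cox4i2 was lost in 1 of 15 other settings, when cells were thinned to 1000 UMIs (log2 fold change 1.44, adjusted p = 0.23).

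Ndufa4l2, a hypoxia-responsive relative of the complex IV subunit Ndufa4 (chr10:127514967-127517154, plus strand), stood at 10.9 CPM in the control, from 4 UMIs, and at 66.7 and 86.0 CPM with Dox (2.77, SE 0.52, adjusted p = 0.0091; 6.63-fold from summed UMIs, 95% counting interval 2.55 to 24.6). Ndufa4 itself stood at 630, 659 and 510 CPM and was not called. Without the 3 deepest control cells, which held 45.5% of the class's control UMIs, the adjusted p of Ndufa4l2 was 0.067, and it was also lost with DESeq2 and without the mitochondrial limit on cells (0.066 in both). Cox6b2, the testis-type isoform of subunit VIb (chr7:4751792-4753094, minus strand), had no control UMI, against 99 and 20 UMIs with Dox (52.8 and 27.7 CPM). It passed the filter on low counts only through the Dox libraries, so its call is no support for a difference. Set against the 3 counts that a control sum of 0 allows, it was at least 6.48-fold higher in Dox replicate 1 and at least 3.40-fold higher in Dox replicate 2. Its common partner Cox6b1 stood at 432, 672 and 546 CPM (0.50, adjusted p = 0.19).

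Cox7a1, the heart and skeletal muscle isoform of subunit VIIa, went the other way within its pair. It made up 26.9% of Cox7a1 and Cox7a2 UMIs in the control (95% Wilson interval 22.0 to 32.4) against 15.4% (13.9 to 17.05) and 13.01% (10.6 to 15.8) with Dox. The level of Cox7a1 was 204, 163 and 115 CPM (-0.53, adjusted p = 0.29), not called under TMM scaling but called lower under total-count scaling, while Cox7a2 stood at 554, 897 and 770 CPM (0.59, adjusted p = 0.10). In sulcus-like cells the Cox7a1 share was 18.3%, 7.78% and 7.80%, and in Reissner-like cells 7.30%, 2.52% and 2.45%. The Dox libraries were lower than the control in all 3 epithelial classes. Cox6b2 was low in the controls of the same classes: Reissner-like cells held it at 7.87, 149 and 151 CPM and sulcus-like cells at 0, 44.0 and 48.7 CPM, unscaled. Cox4i2 did not follow that pattern, since its share of the pair in sulcus-like cells was 20.6%, 19.1% and 22.1%. Other muscle isoforms were near absent, Cox6a2 having 0 UMIs in all 3 supporting cell-like sums and Cox8b having 1.

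**Figure D4:**
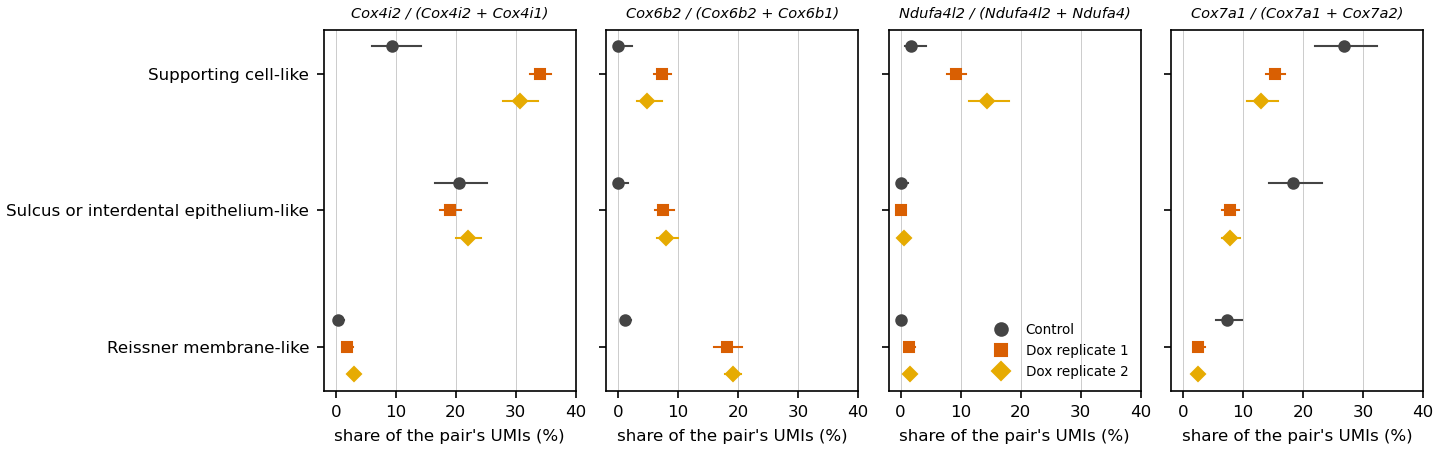
Share (%) of each isoform in the UMIs of its pair, per library, in supporting, sulcus and Reissner-like cells; bars are 95% Wilson intervals and cover counting error only. In supporting cell-like cells Cox4i2 goes from 9.33% to 30.7% and 34.1%, and the Cox7a1 share is lower with Dox in all 3 classes.

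Marker levels of other cell types moved with these results. Pericyte-like cells, with 3 control cells, held Cox4i2 at 351 and 356 CPM and Ndufa4l2 at 475 and 466 CPM in the Dox libraries, unscaled. In the supporting cell-like sums the 12 pericyte markers together stood at 21.7, 96.0 and 68.0 CPM, most of it Notch3, a Notch receptor (13.6, 68.3 and 48.5 CPM; log2 fold change 2.13, adjusted p = 0.035). Of the others, Gucy1b1 had 0, 36 and 5 UMIs and Pdgfrb 0, 5 and 9, while Rgs5, Abcc9, Acta2 and Des had 0 UMIs in all 3 libraries and the remaining 5 had at most 7 in any. Fibroblast-like cells held Ndufa4l2 at 517 CPM in the control and 281 CPM in Dox replicate 2, from largely different clusters. The 13 fibroblast markers stood at 16.3, 22.4 and 16.6 CPM in the supporting cell-like sums. The 9 sulcus or interdental markers stood at 10260 CPM there in the control against 3516 and 2515 with Dox, the 13 hair cell markers at 1549 against 635 and 537, and the 10 cycling cell markers at 19.0 against 407 and 153. The part of these marker differences in the respiratory chain results was not tested.

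**Figure D5:**
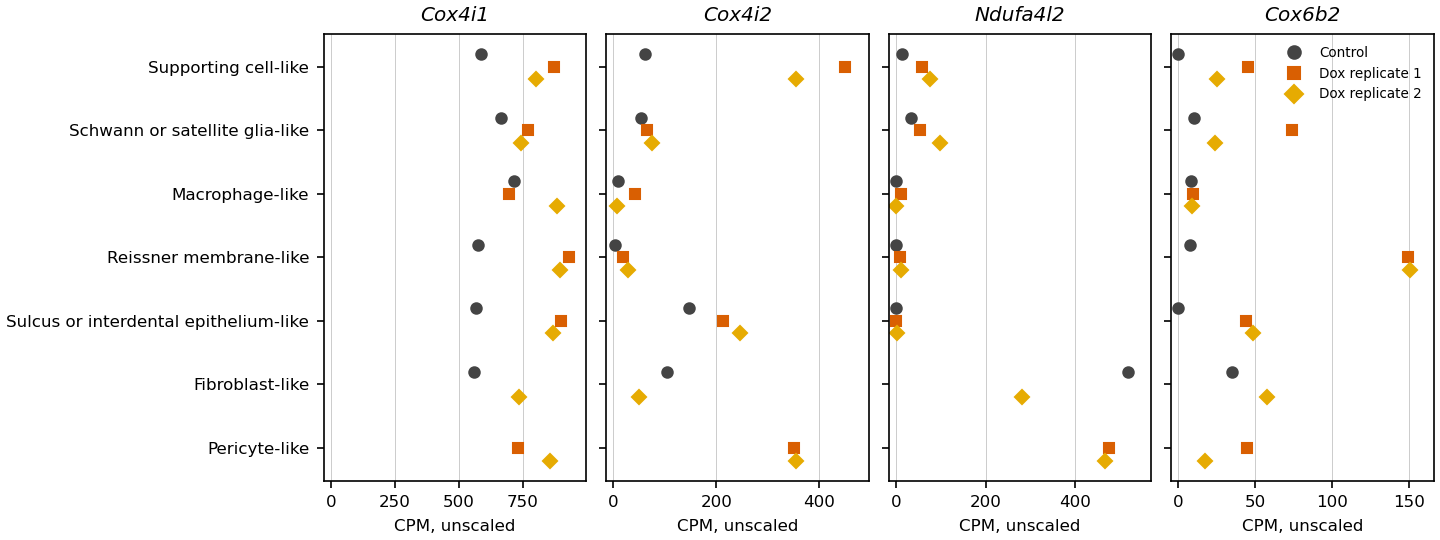
Unscaled CPM of Cox4i1 and of the alternative isoforms Cox4i2, Ndufa4l2 and Cox6b2 per cell class and library, for classes with at least 10 cells in that library. Cox4i2 is highest in supporting cell-like Dox libraries (451 and 355 CPM) and pericyte-like cells, and Cox6b2 in Reissner membrane-like Dox libraries (149 and 151 CPM).

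Among common subunits, the calls with the smallest p besides Cox4i1 were Uqcrh, Atp5g2, Ndufa10 and Atp5d. Uqcrh, the hinge protein of complex III, stood at 530, 1118 and 1039 CPM (1.03, SE 0.19, adjusted p = 0.0081). Atp5g2, which codes for the c-ring subunit of ATP synthase, stood at 500, 1082 and 964 CPM (1.03, SE 0.19, adjusted p = 0.0089). The other genes for the same c-ring protein, Atp5g1 and Atp5g3, stood at 296, 477 and 398 CPM and at 185, 313 and 234 CPM, and neither was called (0.57 and 0.58, adjusted p = 0.15 and 0.22). Ndufa10, an accessory subunit of complex I, stood at 51.6, 137 and 191 CPM (1.65, SE 0.36), and Atp5d, the delta subunit of the ATP synthase stalk, at 293, 547 and 570 CPM (0.93, SE 0.21). The remaining called genes, named after their values were seen, were Uqcr11, Ndufa6, Atp5c1, Cox7c, Ndufb5 and Cox5b, with log2 fold changes from 0.80 to 0.90. Uqcrh and Atp5d were not called under total-count scaling (adjusted p = 0.0504 and 0.18), while Atp5g2 and Ndufa10 were. Over all other settings the call was lost in 2 of 15 for Uqcrh (adjusted p up to 0.60), 5 of 15 for Atp5d (up to 0.62), 2 of 15 for Atp5g2, which also turned to -0.067 with thinned cells, and 3 of 14 for Ndufa10 (up to 0.12), among them without the 3 deepest control cells (0.059). Cycs, the electron carrier between complexes III and IV, stood at 231, 316 and 293 CPM and was not called (0.40, adjusted p = 0.32).

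Promoter windows of 250 bases upstream and 50 bases downstream of the start were matched for 75 of the 93 nuclear symbols (RefSeq, GRCm38.p6). Motifs of factors known for nuclear respiratory chain genes were searched on both strands. The NRF1 motif, the 10 letters in capitals in Atp5g2, was found for 7 of 75 genes (9.33%) against 1.07% of all 27025 genes with a window. These 27025 genes were not limited to those expressed in the cells studied. The YY1 motif AAGATGGCG was found for 8 members (10.7%) against 1.64%. The ETS motif CCGGAAG, the core read by GABP, was in 18 (24.0%) against 9.93%, and the E-box CACGTG, the site read by MYC and other E-box factors, in 5 (6.67%) against 8.09%. Upstream sequences are shown for Uqcrh and Atp5g2, the common subunits with the smallest p, 5′ to 3′ and ending at the base before the start, with the motif found in capitals.
Uqcrh, chr4:116075071-116075320, minus strand, ETS motif at -10: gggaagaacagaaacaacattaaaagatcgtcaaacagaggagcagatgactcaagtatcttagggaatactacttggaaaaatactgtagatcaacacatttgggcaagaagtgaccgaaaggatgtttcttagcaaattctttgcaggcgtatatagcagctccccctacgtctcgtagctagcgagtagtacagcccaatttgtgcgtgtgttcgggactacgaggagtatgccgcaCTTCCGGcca
Atp5g2, chr15:102671048-102671297, minus strand, NRF1 motif at -42: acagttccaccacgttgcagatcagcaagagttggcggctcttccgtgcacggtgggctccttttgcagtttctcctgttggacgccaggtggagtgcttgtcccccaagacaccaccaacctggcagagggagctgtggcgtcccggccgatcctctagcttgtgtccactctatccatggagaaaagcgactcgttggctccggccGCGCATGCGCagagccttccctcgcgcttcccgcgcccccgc
The NRF1 motif reads the same on both strands; the ETS motif of Uqcrh is on the other strand. A match describes these letters only.

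In glia-like cells 3.27% of 7618 genes tested were called higher and 3.73% lower (7.0% in all), and no respiratory chain gene was called. Of 86 nuclear members tested, 8 had an unadjusted p under 0.05 and the median log2 fold change was 0.22. Over all genes 1606 of 7618 had one, a larger share than among the nuclear members. Of the 13 mitochondrial genes 3 had one, the median was 0.67, and all 13 were higher in both Dox libraries. Both Dox libraries lay above the control for 40.5% and below it for 40.3% of all genes tested. DESeq2 also called 0 in this class. The 3 nuclear members of smallest p missed the threshold. Cox6b2 stood at 9.28, 83.1 and 24.5 CPM from 3 control UMIs (6.28-fold, 95% counting interval 2.07 to 31.2, adjusted p = 0.079). Ndufb5, a complex I accessory subunit, stood at 152, 342 and 255 CPM (0.98, adjusted p = 0.085), and Ndufs4, a late-assembling complex I subunit, at 71.1, 155 and 136 CPM (1.03, adjusted p = 0.089). Cox6b2 was called in 6 other settings, among them total-count scaling (adjusted p = 0.012). The nuclear sum of the class was 22884, 29259 and 24439 CPM and the mitochondrial sum 29808, 49328 and 44645 CPM, TMM-scaled. The 14 glial markers stood at 6260 CPM in the control against 2442 and 3262 with Dox, and their part in these values was not tested.

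In macrophage-like cells 0.969% of 7740 genes tested were called higher and 0.749% lower (1.72% in all), and again 0 of 81 nuclear and 0 of 13 mitochondrial members were called by edgeR or by DESeq2. None of either group had an unadjusted p under 0.05, against 715 of all 7740 genes. The medians were 0.11 and 0.78, and 12 of 13 mitochondrial genes were higher in both Dox libraries, against 35.9% of all genes (33.5% were lower in both). The mitochondrial sum stood at 23041, 48364 and 34533 CPM and the nuclear sum at 20789, 22636 and 24657 CPM. Among the nuclear members of smallest p were Cox4i2 (8.34, 44.0 and 7.59 CPM, from 3 control UMIs; 3.198-fold, 95% counting interval 1.01 to 16.2) and the complex II anchor Sdhd (58.4, 118 and 88.0 CPM). Both missed the threshold, at adjusted p = 0.75 and 0.87. Other markers moved in this class. The 13 macrophage markers stood at 21531, 25934 and 10163 CPM, the 12 neutrophil lineage markers at 14713, 22963 and 15922 CPM (3 called higher and 3 lower), the 15 markers of other epithelium at 8.34, 15.1 and 613 CPM (2 higher) and the 9 sulcus or interdental markers at 8.34, 4.12 and 234 CPM. The 12 pericyte markers stood at 13.9, 118 and 10.6 CPM, highest in Dox replicate 1, as Cox4i2 was. The part of all these markers in the values of the class, Cox4i2 included, was not tested.

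Whether the Dox effect differed between the classes was tested in a joint fit with the library as a block. Of 10731 genes tested, 0.0% were called in each of the 3 contrasts, and none of the 101 members tested was. An unadjusted p under 0.05 was reached by 2 members for glia against supporting cell-like cells, 4 for macrophage against supporting and 1 for macrophage against glia, where 6.29%, 9.07% and 7.23% of all genes reached it; DESeq2 was not run on this fit. For mt-Nd3 the effect was 1.26 log2 units smaller in glia-like than in supporting cell-like cells (SE 0.44, adjusted p = 0.75). For Cox4i2 it was 2.54 units smaller (SE 0.92, adjusted p = 0.76). The calls of these genes in supporting cell-like cells alone are therefore not shown to be particular to them.

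Related mitochondrial genes were followed by 4 lists. Among 31 genes of mitochondrial import and carriers, all tested in supporting cell-like cells, 11 rose and 0 fell, with a median of 0.91. All genes tested in the class, with 5.76% called higher, 3.0% lower and a median of 0.03, are the background for each list. The list values are under TMM scaling. Under total-count scaling, where the median of all genes in the class was -0.47, the lists were not examined. Hspd1 and Hspe1, which together form the mitochondrial folding chamber, stood at 168, 780 and 953 CPM (2.36) and at 291, 1144 and 982 CPM (1.87). Tomm5, a small part of the outer membrane import pore, stood at 40.8, 236 and 202 CPM (2.43), and Slc25a5, an ADP/ATP carrier, at 97.8, 300 and 272 CPM (1.55). Among 20 tested genes of the TCA cycle and pyruvate entry 2 were called higher and 0 lower, with a median of 0.35. These were Suclg2, a subunit of succinyl-CoA synthetase (16.3, 80.0 and 88.8 CPM, 2.35), and Idh3a, a subunit of the NAD-dependent isocitrate dehydrogenase (8.15, 45.9 and 45.8 CPM, 2.47; 3 control UMIs). Of 42 tested assembly factors and complex parts outside the symbol rule 1 was called higher and 1 lower, shares no larger than those of all genes, with a median of 0.43. Cyc1, the cytochrome c1 subunit of complex III, stood at 27.2, 105 and 135 CPM (2.12), and Higd1a, a hypoxia-inducible partner of complexes III and IV, fell from 658 CPM to 402 and 359 (-0.79). Of 26 tested genes of mitochondrial gene expression and biogenesis 0 were called and 8 had an unadjusted p under 0.05, as did 2074 of all 8902 genes, with a median of 0.70. Tfam, the packaging and transcription factor of mitochondrial DNA, stood at 24.5, 71.0 and 61.0 CPM (1.44, adjusted p = 0.064). In glia-like cells 1 gene of each list was called higher and 0 lower, of 31, 22, 36 and 20 tested, near the 3.27% of all genes called higher. They were Hspd1 (356, 882 and 817 CPM, 1.26), Tfam (15.5, 65.1 and 73.6 CPM, 2.14), the complex III assembly factor Uqcc3 (24.7, 87.2 and 69.8 CPM, 1.67) and Suclg2. Suclg2 had 0, 40 and 9 UMIs and passed the filter only through the Dox libraries, so its call is no support for a difference. In macrophage-like cells none of the 4 lists held a called gene, and 1 gene in all had an unadjusted p under 0.05.

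Levels also differed between classes within the control library. The mitochondrial share of UMIs was highest in sulcus-like cells (4.79%), followed by supporting (3.67%), Reissner (3.44%), glia (3.24%), melanocyte (2.95%), fibroblast (2.53%) and macrophage-like cells (2.32%), among named classes with at least 10 control cells. In both Dox libraries glia and macrophage-like cells remained below supporting cell-like cells, with 4.39% and 4.28% for glia and 4.67% and 3.34% for macrophages. The nuclear share in the control ran from 1.86% in fibroblast-like to 3.75% in melanocyte-like cells among these classes. With 1 control library the spread of this order between replicates is unknown.

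Barcodes with little Malat1, a nuclear RNA, had a different balance between the genomes. They numbered 55, 202 and 160 of the kept cells, and gave mitochondrial to nuclear ratios of 0.62, 0.34 and 0.31, against 1.27, 1.84 and 1.62 in the cells with Malat1. Their nuclear share was 3.71%, 3.39% and 3.31%, against 2.30%, 2.65% and 2.65%. These barcodes made up 12 of 23, 31 of 57 and 12 of 26 supporting cell-like cells. In the supporting cell-like cells with Malat1 the median cell had a mitochondrial share of 3.62% in the control (quartiles 2.66 to 3.99), 6.45% in Dox replicate 1 (4.94 to 7.41) and 6.19% in Dox replicate 2 (4.40 to 7.34). The ratio in those cells was 1.51, 2.60 and 2.40, so the libraries kept their order among cells with Malat1. In the supporting cell-like cells with little Malat1 the ratio ran from 0.31 to 1.03 over the libraries. There the control lay between the Dox libraries, so the order was not kept. Barcodes left out by the cell filter, 149, 152 and 98 in number, held 81.8%, 49.4% and 61.0% mitochondrial respiratory chain UMIs with under 1% nuclear ones (0.55%, 0.82% and 0.46%).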

How the data were processed

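The deposited files hold raw UMI counts per gene and cell barcode, made by the authors with Cell Ranger 5.0 and STAR on mm10 (GRCm38), per the submitters' processing notes; the matrix headers name software version 3.1.0. Seurat 3.2.2 is listed too. Cells were clustered with scanpy 1.11.5 (2000 variable genes, 30 components, Leiden resolution 1) and named from marker lists. A first ranking of cluster genes left the supporting and glial clusters unnamed; ranking by fold was then used. That ranking, the Malat1 limit of 1000 CPM and the removal of shallow barcode copies were settled after the cells were seen. Raw counts were summed per class and library and tested with edgeR 4.0.16 (quasi-likelihood, TMM, filterByExpr); DESeq2 1.42.0 was an alternative. Standard errors were derived from the log2 fold change and its F statistic. The fit was tested on simulated data. The members and lists were chosen with earlier results of these data known. Named genes were the 13 mitochondrial genes, up to 8 called nuclear members of smallest p per class (3 where none was called), the isoform pairs and up to 4 genes per list by smallest p. 1 gene that this rule names is not reported here. Positions come from GENCODE M21. The alternatives changed the scaling, the count filter, the test, the cell filter, the clustering, the cells used and the libraries. Interval confidence was 95%.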

Additional observations from a re-analysis of the deposited data

How the results depend on the processing

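The number of nuclear members called higher in supporting cell-like cells (14) was 8 without the low-count filter, 4 by DESeq2, 3 without the mitochondrial limit on cells, 8 without cells of little Malat1, 0 with cells thinned to 1000 UMIs and 5 under total-count scaling. The number called lower (0) was 7 under total-count scaling and 1 with thinned cells. Their median log2 fold change turned to -0.059 and -0.10 in these 2 settings, and that of glia-like cells to -0.026 under total-count scaling. With thinned cells 40 nuclear members were tested, and 94 of all 471 genes tested were called higher and 31 lower. In the main setting 513 of 8902 genes were called higher and 267 lower. Why no nuclear member was called higher with thinned cells was not tested. Of all genes, 2.22% were called higher without the low-count filter, 2.48% by DESeq2 and 4.02% without cells of little Malat1. Without the mitochondrial limit 169 of 8451 were. The 9 mitochondrial calls became 5 without cells of little Malat1. In glia-like cells the count of nuclear calls (0) was 1 under DESeq2 size factors, total-count scaling, without mitochondrial genes and with the strict cell filter, and 3 without the mitochondrial limit and with libraries clustered alone; the mitochondrial count was 1 without the mitochondrial limit. In supporting cell-like cells mt-Co1 turned to -0.12 and mt-Nd6 to -0.23 under total-count scaling, mt-Nd6 to -0.17 without the 3 deepest control cells, and Atp5g2 to -0.067 with thinned cells; the cause was not tested. The Dox mean of the mitochondrial to nuclear ratio over control in supporting cell-like cells (1.64) was 2.32 with thinned cells and 1.99 without the 3 deepest control cells. In glia-like cells (1.35) it was 1.25 with equal cell weights and 1.04 at resolution 2, where 15 of the 28 control cells stayed in the class. In macrophage-like cells (1.60) it was 0.89 with equal weights and 1.03 with thinned cells. Leaving out a Dox library gave 1.49 to 1.79, 1.29 to 1.40 and 1.26 to 1.93 in the 3 classes. With the shallow copies kept, which was chosen after seeing the data like the removal of the 3 deepest control cells, 12 nuclear and 10 mitochondrial members were called in supporting cell-like cells, 21 of these 22 among the original 23. The Cox4i2 share of its pair over 9 settings was 6.13% to 25% in the control and 28.6% to 43.3% with Dox. Clustering each library alone gave no supporting cell-like class in Dox replicate 2. Of 796 alternative values 696 counted as the same as the main result. For a named gene this meant the same direction and side of the threshold. With a Dox library left out, it meant a change within the gene's standard error. Counts of calls had to lie within a fixed fold of the main count. Medians, ratios and isoform shares had to lie within the spread between the Dox libraries. Some settings left the sums of a class unchanged, so their values could only be the same. These were resolutions 0.5 and 2 for supporting and macrophage-like cells. For glia-like cells they were resolution 0.5, clustering without the respiratory chain genes, and the shallow copies kept. No paired analysis was possible because the control group has a single library. Depth limits genes with few control UMIs.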
